A study of Rattus norvegicus with 2 samples.

Results

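The lysosome and autophagy genes Ctsd, Ctsb, Ctsl, Lamp1, Lamp2, Cd63, M6pr and Sqstm1 were followed in the islet amyloid model of type 2 diabetes known as the HIP rat. They were taken by their gene name in the array design, and all 8 genes were found. Together they had 14 probes with 1 spot each, out of 41012 gene probes on the array. All 14 probes were among the 33651 (82.1%) that passed the filter on dim spots, which asked that on each array 1 dye or both be well above background. Amplified cDNA was compared from 2 extracts of HIP rats, transgenic for human islet amyloid polypeptide (IAPP), and 2 extracts of wild-type rats, which the series describes as nondiabetic. The HIP line is known to drive this transgene from a rat insulin promoter in beta cells, and the series title names islet inflammation, ductal proliferation and pancreatitis as its subject. Each of 2 two-colour arrays held 1 HIP extract in Cy5 and 1 wild-type extract in Cy3, so array 1 compared HIP 1 with wild type 1 and array 2 compared HIP 2 with wild type 2. With no dye swap, an effect of genotype and an effect of dye cannot be told apart. The labels speak of cell samples without naming the tissue, the age or the strain, and do not say that the extracts came from separate animals, so a p-value here covers the spread of these samples alone, and that spread may be technical.

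Lysosomes are acidic organelles in which cathepsins and other hydrolases break down proteins, lipids and sugars delivered by endocytosis and by autophagy, the process that wraps cytoplasm and organelles in a membrane and carries them to the lysosome. New hydrolases reach the lysosome by mannose 6-phosphate receptors, and the membrane around them is lined by heavily glycosylated LAMP proteins. In beta cells this route also takes up unused insulin granules, and work on human IAPP has placed autophagy among the ways in which its toxic aggregates are cleared.

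The 3 members with a match to the motif CACGTG in the 250 bases before their start are shown here, because this hexamer is the core of the element through which TFEB, a transcription factor for lysosomal genes, is known to act. The sequences are those of RefSeq on the GRCr8 rat assembly, read 5′ to 3′ on the strand of the gene, with each CACGTG in capitals. The Ctsd sequence lies at chr1:206968822-206969071 on the minus strand, that of Lamp1 at chr16:83075064-83075313 on the minus strand, and that of Cd63 at chr7:1921894-1922143 on the plus strand.
Ctsd: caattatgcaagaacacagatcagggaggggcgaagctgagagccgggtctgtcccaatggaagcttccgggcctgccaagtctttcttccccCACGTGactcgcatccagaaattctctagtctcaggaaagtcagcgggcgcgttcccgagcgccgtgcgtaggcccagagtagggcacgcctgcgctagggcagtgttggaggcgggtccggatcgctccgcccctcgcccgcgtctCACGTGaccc
Lamp1: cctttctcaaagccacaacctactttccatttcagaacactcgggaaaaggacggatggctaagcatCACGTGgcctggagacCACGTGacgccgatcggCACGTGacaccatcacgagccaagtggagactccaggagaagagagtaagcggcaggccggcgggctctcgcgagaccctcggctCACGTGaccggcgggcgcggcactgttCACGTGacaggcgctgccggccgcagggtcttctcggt
Cd63: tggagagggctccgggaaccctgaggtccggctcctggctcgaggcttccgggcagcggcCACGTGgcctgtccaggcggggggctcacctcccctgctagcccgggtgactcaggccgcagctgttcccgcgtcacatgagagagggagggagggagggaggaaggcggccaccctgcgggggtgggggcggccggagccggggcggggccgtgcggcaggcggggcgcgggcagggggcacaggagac
Ctsd held 2 matches, which began 157 and 10 bases before the start. Lamp1 held 5, which began 183, 167, 150, 65 and 38 bases before it, and Cd63 held 1, which began 190 bases before it. The motif reads the same on both strands. No match was present in the same window of Ctsl, Lamp2 and Sqstm1, while Ctsb and M6pr were not in the sequence table. Matches were thus found in 3 of 6 members with a sequence (50%), in 17 of 109 other lysosome and autophagy genes (15.6%) and in 1591 of all 27457 promoters (5.8%). The longer palindrome TCACGTGA, which contains the hexamer, was found in 2 of these members (Ctsd and Lamp1), in 6 of the other lysosome and autophagy genes (5.5%) and in 204 of all promoters (0.74%). A match describes these letters only.

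Each array gave a log2 ratio of HIP over wild type for every probe, where 1 stands for a 2-fold difference. Across all probes limma, with adjusted p under 0.05 as its threshold, called none higher (0%) and none lower (0%) in HIP, while 587 were higher and 512 lower at an unadjusted p under 0.05, where 1683 are expected by chance. The smallest adjusted p was 0.9419. No member therefore passed the test. At an unadjusted p under 0.05 were 1 higher member probe (Ctsd) and 1 lower (M6pr), while with a trended prior of the spread 0 probes were. The values that follow describe 2 HIP and 2 wild-type extracts. An exact sign-flip test of 2 ratios cannot go below p = 0.5. Between the 2 arrays the ratios had a Pearson r of -0.01 across 33651 probes, and 49.8% of probes had the same sign on both. The median gene spot was 5.13 and 5.1 times its local background in the HIP extracts, against 5.26 and 2.94 times in the wild-type extracts, and no gene spot was saturated.

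Ctsd, Cd63 and M6pr gave the largest differences among the members. Ctsd was about 6-fold higher in HIP on both arrays, and Cd63 was 12.1-fold higher on array 2 alone. Ctsd and Cd63 had 1 probe each, so no second probe could be set beside these values. Of the 2 M6pr probes, 1 was at least 27.1-fold lower on both arrays while the other was not. Of the remaining members, Ctsl was higher in HIP on array 1 and near 0 on array 2, and the others had mean ratios between -0.68 and 0.53 with no probe at least 2-fold apart the same way on both arrays. Ratios lay above 0 on both arrays for 4 of 14 probes (background 26.9% of all probes) and below 0 on both for 2 (background 22.9%), and for 8 the arrays differed in sign. At least 2-fold higher on both arrays was 1 probe (background 2.57%), at least 2-fold lower on both was 1 (background 2.44%), and 2 were at least 2-fold apart in opposite directions (background 5.43%). The median of the mean log2 ratios was 0.30 over the member probes, against 0.02 over all probes.

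**Figure D1:**
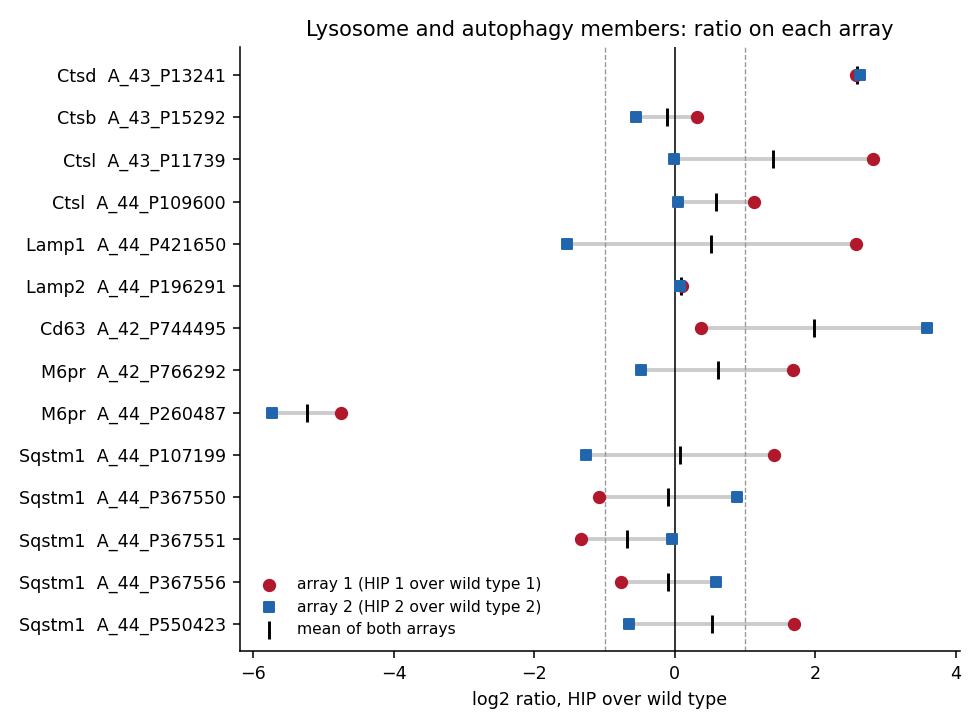
Log2 ratio of HIP over wild type for each of the 14 member probes on array 1 (circles) and array 2 (squares), with the mean of both arrays as a black tick and dashed lines at a 2-fold difference. The Ctsd symbols almost coincide at 2.58 and 2.63 and those of the M6pr probe A_44_P260487 lie at -4.76 and -5.73, while 8 of the 14 probes have symbols on opposite sides of 0.

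Among the cathepsins, the proteases of the lysosome, Ctsd encodes cathepsin D, the main aspartic protease. Its probe A_43_P13241 had normalized intensities of 1535 and 1936 in HIP 1 and HIP 2, against 256.8 and 312.8 in wild type 1 and wild type 2. Both HIP levels were above both wild-type levels, and the extracts of each genotype lay close together. The log2 ratios were 2.58 and 2.63, with a mean of 2.60 ± 0.04 (SD, n = 2 arrays). Each ratio alone was at percentile 96.3 of array 1 and 95.8 of array 2. The limma SE was 0.38, and its p was 0.00896 before adjustment and 0.942 after it. With a trended prior of the spread, the unadjusted limma p was 0.279. The Ctsd spot was well above background in all 4 extracts, at 50.9 and 71.6 times its local background in HIP, against 6.43 and 4.98 times in wild type. In the authors' deposited table the log2 ratios of this probe were 3.01 and 3.02. In bulk extracts of this kind, a difference in the number of cells of a type and a difference in RNA per cell cannot be told apart.

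Ctsb encodes cathepsin B, an abundant cysteine protease. Its probe A_43_P15292 had 144.2 and 134.9 in HIP, against 115.3 and 196.8 in wild type, so the HIP levels lay between the 2 wild-type levels. Its log2 ratios were 0.32 and -0.55 and their mean was -0.11 ± 0.61 (SD, n = 2; limma adjusted p = 0.998).

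Ctsl encodes cathepsin L, another cysteine protease, and had 2 probes whose centres lay 3173 bases apart in the array's own coordinates (genome build not given in the sources used here). The probe A_43_P11739 had 2051 and 216.8 in HIP, against 291.1 and 218.4 in wild type. HIP 1 alone stood high, and HIP 2 was level with the wild-type extract on its array. On array 1 and array 2 the log2 ratios were 2.82 and -0.01 and averaged 1.40 ± 2.00 (SD, n = 2; limma adjusted p = 0.942). The other probe, A_44_P109600, also had HIP 1 as its highest extract, at 580.3 and 169.5 in HIP, against 264.3 and 163.8 in wild type. Its log2 ratios were 1.13 and 0.05, so on array 1 the probes of this gene differed by 1.69.

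Of the membrane proteins, Lamp1 encodes the abundant lysosome-associated membrane protein that shields the organelle's membrane from its own enzymes. Its probe A_44_P421650 had 2653 and 381.1 in HIP, against 443.4 and 1111 in wild type. The highest and the lowest of the 4 levels were both HIP extracts, and the genotypes overlapped. The log2 ratios were 2.58 and -1.54, so Lamp1 was 5.98-fold higher in HIP on array 1 and 2.92-fold lower on array 2. Between the extracts of 1 genotype the log2 level differed by -2.80 (HIP 2 minus HIP 1) and 1.33 (wild type 2 minus wild type 1), and the mean ratio was 0.52 ± 2.92 (SD, n = 2; limma adjusted p = 0.996).

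Lamp2 encodes the related protein needed for the fusion of autophagosomes with lysosomes and, in 1 of its isoforms, for chaperone-mediated autophagy. Its probe A_44_P196291, whose listed position spans 6609 bases, was the dimmest of the set relative to background, at 1.8 and 1.82 times local background in HIP, against 1.68 and 1.57 times in wild type. The probe was not well above background in wild type 2. Its levels were 80.71 and 84.15 in HIP, against 75.09 and 80.02 in wild type, so the HIP levels lay just above the wild-type levels. The mean log2 ratio was 0.09 ± 0.02 (SD, n = 2; limma adjusted p = 0.998), and with ratios centred on the array median in place of loess it was -0.45 relative to all probes.

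Cd63 encodes a tetraspanin of late endosomes, lysosomes and secretory granules. Its probe A_42_P744495 had 175.2 and 2627 in HIP, against 135.3 and 217.5 in wild type. HIP 2 alone stood high, and HIP 1 lay between the wild-type levels. Its log2 ratios of 0.37 and 3.59 averaged 1.98 ± 2.28 (SD, n = 2). The limma p was 0.166 before adjustment and 0.942 after it. The ratio of array 2 was at percentile 98.4 of that array, and the ratio of array 1 was at percentile 70.9. Lamp1 and Cd63, both membrane proteins of the late endosome and lysosome, were thus high in different HIP extracts.

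**Figure D2:**
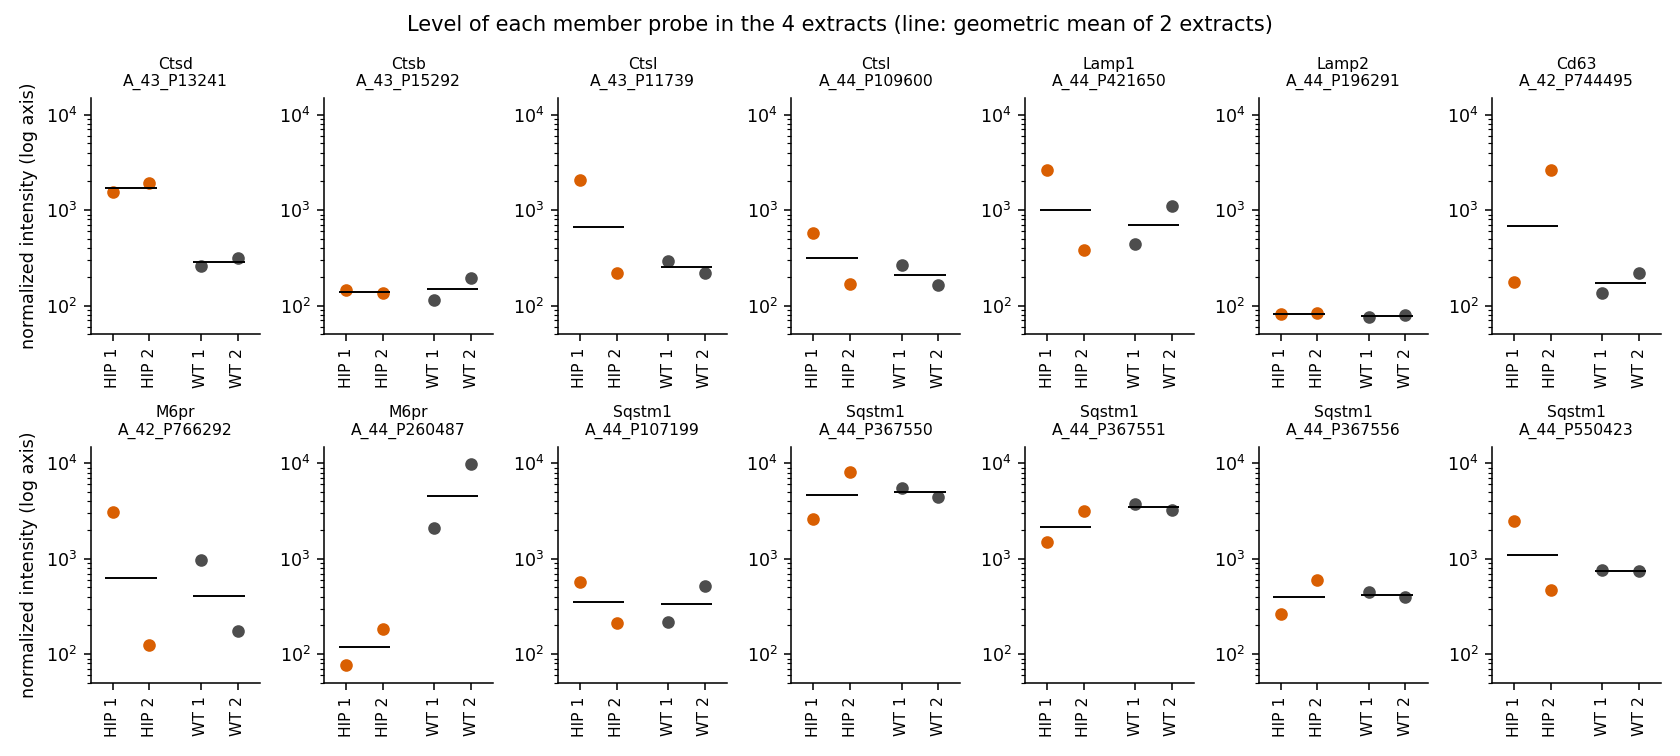
Normalized intensity (log axis) of each of the 14 member probes in HIP 1 and HIP 2 (orange) and in wild type 1 and wild type 2 (grey), with a line at the geometric mean of the 2 extracts of a genotype. Ctsd has both HIP extracts (1535 and 1936) above both wild-type extracts (256.8 and 312.8), the M6pr probe A_44_P260487 has both HIP extracts (76.59 and 183.8) below both wild-type extracts (2076 and 9741), and Ctsl, Lamp1 and Cd63 each have 1 high HIP extract.

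M6pr encodes the cation-dependent mannose 6-phosphate receptor, which carries newly made hydrolases from the Golgi to endosomes. Its probe A_44_P260487, whose listed position spans 1780 bases, had 76.59 and 183.8 in HIP, against 2076 and 9741 in wild type. Both HIP levels lay far below both wild-type levels, although the wild-type extracts themselves differed by 2.23 on the log2 scale. Its log2 ratios were -4.76 and -5.73, which is 27.1-fold and 53-fold lower in HIP, and averaged -5.24 ± 0.68 (SD, n = 2). The limma p was 0.00264 before adjustment and 0.942 after it, and with a trended prior of the spread it was 0.879 before adjustment. Each ratio was at percentile 0.3 of its array. The spot was 2.25 and 6.52 times its local background in HIP, against 61.1 and 167 times in wild type.

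The other M6pr probe, A_42_P766292, gave different values for the same transcript record. It had 3124 and 125.1 in HIP, against 966.6 and 174.2 in wild type, so array 1 was high and array 2 low in both genotypes. The log2 ratios were 1.69 and -0.48, with a mean of 0.61 ± 1.53 (SD, n = 2; limma adjusted p = 0.964). The M6pr probes thus differed by 6.45 on array 1 and by 5.25 on array 2, with their centres 2909 bases apart. The authors' deposited table, which holds 1 entry for M6pr under the name of the probe A_44_P260487, lists log2 ratios of 0.56 and -1.77, a mean of -0.61, with the way of combining probes not given in the sources used here. The direction and size for M6pr therefore rest on which probe is read.

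Sqstm1 encodes p62, the receptor that links ubiquitinated cargo to the autophagosome and is itself degraded with it. It had 5 probes, 3 of them designed to the same transcript record. Of these 3, A_44_P367550 had 2626 and 8189 in HIP, against 5558 and 4424 in wild type. The highest and lowest levels were again the HIP extracts. Its overlapping neighbour A_44_P367551, which shares 19 bases of position with it, had 1489 and 3151 in HIP, against 3736 and 3232 in wild type, so both HIP levels lay below both wild-type levels. The dimmer A_44_P367556 had 262.5 and 600.9 in HIP, against 444.8 and 399.8 in wild type. For these 3 probes the log2 ratio was negative on array 1, at -1.08, -1.33 and -0.76, and higher on array 2, at 0.89, -0.04 and 0.59. Their means were -0.10 ± 1.39, -0.68 ± 0.91 and -0.09 ± 0.95 (SD, n = 2 each), and the means of A_44_P367550 and A_44_P367556 turned positive, to 0.52 and 0.27, with ratios centred on the array median and taken relative to all probes.

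The other 2 Sqstm1 probes had the opposite order of arrays. A_44_P107199, designed to another transcript record and spanning 162 bases, had 576.5 and 213.2 in HIP, against 216.9 and 515 in wild type. A_44_P550423, which has no position in the files, had 2499 and 469 in HIP, against 767.4 and 736.5 in wild type. In both, HIP 1 was the highest and HIP 2 the lowest of the 4 extracts. The log2 ratios were 1.41 and -1.27 for A_44_P107199, with a mean of 0.07 ± 1.90 that was -0.02 with the scanner's own log ratio, and 1.70 and -0.65 for A_44_P550423, with a mean of 0.53 ± 1.66 (SD, n = 2 each). The limma adjusted p of the 5 Sqstm1 probes ran between 0.942 and 1.

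**Figure D3:**
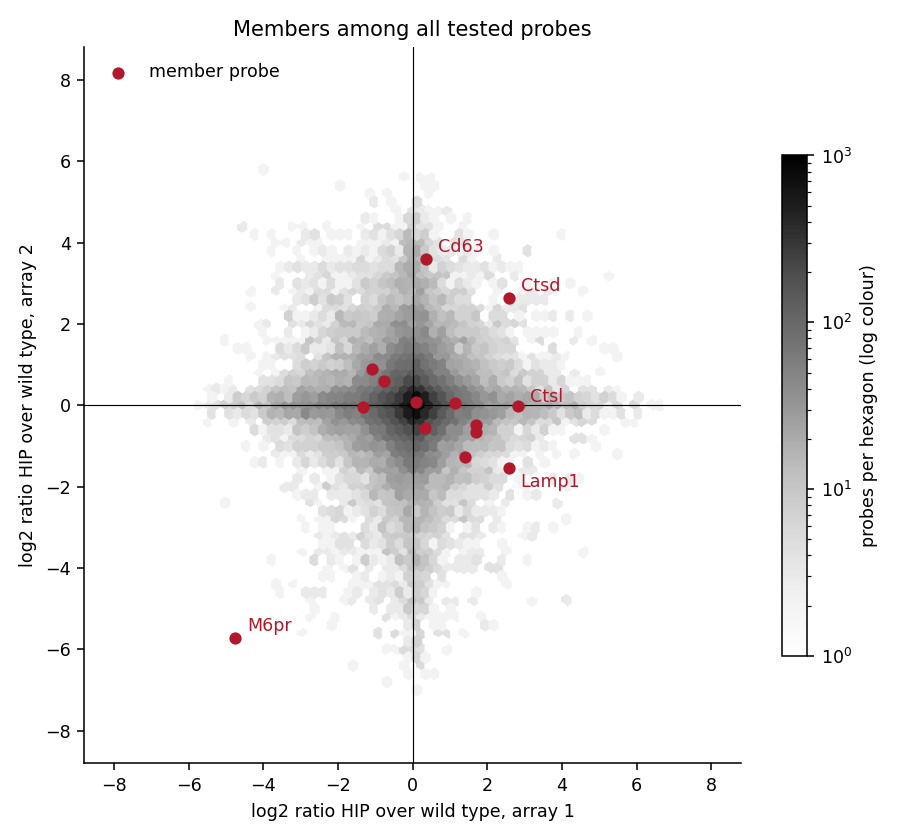
Log2 ratio of HIP over wild type on array 1 (x axis) against array 2 (y axis) for all 33651 tested probes (grey hexagons, shaded by number on a log scale) and the 14 member probes (red). Ctsd lies in the upper right and M6pr probe A_44_P260487 in the lower left, away from the cross-shaped mass in which a large ratio on 1 array goes with a ratio near 0 on the other, where Cd63 and Ctsl lie.

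The members varied more between the 2 HIP extracts than between the 2 wild-type extracts. The median absolute difference in log2 level over the 14 member probes was 1.54 between HIP 1 and HIP 2, against 0.55 between wild type 1 and wild type 2, whereas over all probes these medians were 0.51 and 0.54. Between the means of the genotypes the median absolute difference was 0.56 over the members and 0.43 over all probes. HIP levels lay above both wild-type levels without overlap for 2 members' probes (Ctsd and Lamp2; background 15.8%) and below them for 2 (the M6pr probe A_44_P260487 and the Sqstm1 probe A_44_P367551; background 15.1%). The difference between genotypes exceeded both differences within a genotype for 2 of 14 probes (14.3%), against 17% of all probes. On array 1, 10 of 14 probes were at least 2-fold apart (7 higher and 3 lower in HIP; background 30.5%), and on array 2 it was 5 of 14 (2 higher and 3 lower; background 28%). The probes of 1 gene are not independent of each other, and 5 of the 14 belong to Sqstm1.

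Probes of the same transcript were compared across the whole array to set the M6pr and Sqstm1 values beside others. Over 3812 pairs of probes designed to 1 transcript, the log2 ratios correlated with Pearson r = 0.13 on array 1 and 0.15 on array 2, and 53.8% and 52.9% of pairs had the same sign. These correlations are across pairs that share the labelled extracts of 1 array, and they describe those arrays only. The 149 pairs whose positions overlapped had r = 0.59 and 0.74, the 1089 pairs less than 1000 bases apart had 0.17 and 0.24, and the 2457 pairs at 1000 bases or more had 0.06 and 0.02. All distances here are genomic. Ctsd and Cd63 had 1 probe each and so no pair to compare. The overlapping Sqstm1 probes differed by 0.25 and 0.93 on the 2 arrays. A_44_P107199, which was designed to another transcript record, has its centre 8043 bases from that of A_44_P367550. It differed from A_44_P367550 by 2.49 and -2.16. The cDNA had been amplified by a global PCR method, and the part of amplification in these differences was not tested.

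**Figure D4:**
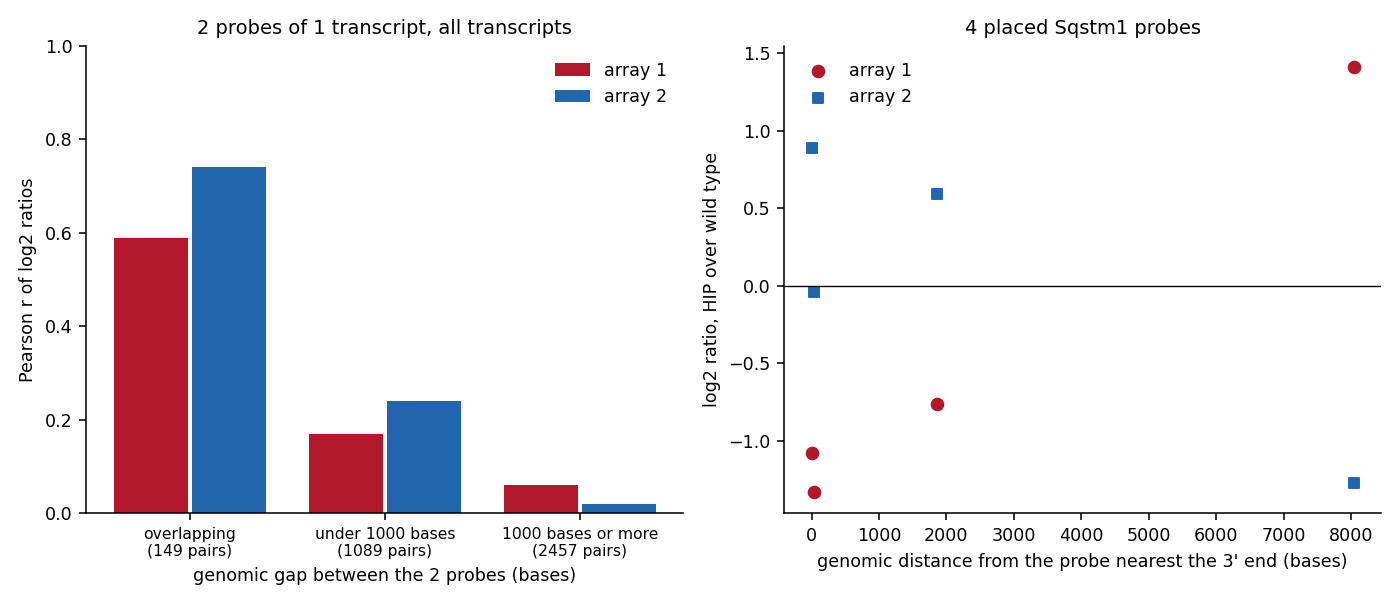
Left, Pearson r of the log2 ratios of 2 probes of 1 transcript over all transcripts, by the gap between their positions, for array 1 (red) and array 2 (blue). Right, log2 ratio of HIP over wild type of the 4 placed Sqstm1 probes against the genomic distance in bases from the probe nearest the 3' end. The farthest of them was designed to another transcript record than the other 3. On the left r is highest for overlapping probes (0.59 and 0.74) and lowest at 1000 bases or more (0.06 and 0.02), and on the right the farthest probe has the opposite order of arrays to the other 3.

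Markers of the cell types that a pancreatic cell sample could hold were read from the same arrays, since macrophages are rich in lysosomes. The 11 tested macrophage probes (8 of 10 listed genes) summed to 6788 to 7842 in HIP, against 5401 to 11740 in wild type. Of these, 2 lay above 0 and 4 below 0 on both arrays. Among the former was Aif1, with 2063 and 944.7 in HIP, against 1037 and 278.3 in wild type (log2 ratios 0.99 and 1.76). Among the latter was Lyz2, with 2195 and 1875 in HIP, against 2241 and 4766 in wild type (log2 ratios -0.03 and -1.35). Cd68, a lysosomal membrane protein used as a macrophage marker, had 95.36 and 96.37 in HIP, against 85.52 and 102.5 in wild type, at 2.35 and 2.18 times background in HIP, against 2.04 and 1.9 times in wild type. The macrophage sums thus overlapped between genotypes. The 9 islet endocrine probes summed to 22100 to 22170 in HIP, against 38900 to 46590 in wild type, with 3 above and 3 below 0 on both arrays. Ins1, an insulin gene, had 4606 and 4546 in HIP, against 10450 and 9202 in wild type. Ins2, the other insulin gene, had 12070 and 10890 in HIP, against 24810 and 19590 in wild type. These bright probes make up most of the sums, with Chga added in wild type 2, while Iapp, Sst and Ppy were above 0 on both arrays. Iapp was dim, at 2.82 and 2.34 times background in HIP, against 1.72 and 1.78 times in wild type. Sst was dim as well, at 1.78 and 1.82 times in HIP, against 1.63 and 1.51 times in wild type. With centring on the array median, the mean log2 ratios relative to all probes were -0.07 for Iapp, -0.43 for Sst and 0.80 for Ppy. The mean log2 ratios of Ins1 and Ins2 were -1.10 and -0.94, and with centring on the array median they were -0.43 and -0.20 relative to all probes. The part of the insulin genes' difference in the Ctsd and M6pr values was not tested. The sums of 9 acinar probes (28440 to 38080 in HIP, against 29050 to 40240 in wild type), 7 ductal probes (2582 to 2780, against 2615 to 2774) and 7 stromal probes (4902 to 6764, against 5042 to 7103) overlapped. So did those of 6 endothelial probes (1507 to 2014 in HIP, against 1393 to 2570 in wild type) and 3 lymphocyte probes (1117 to 13480, against 7178 to 8651). The brightest probes weigh most in every sum, so an overlap of sums does not speak for the dimmer markers. In the lymphocyte sum this was Cd3d, with 883.3 and 13220 in HIP, against 8474 and 6912 in wild type.

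The rest of the pathway was followed in 135 further lysosome and autophagy genes, of which 121 had a probe and 109 genes with 138 probes were tested. limma called 0 of the 138 in either direction after adjustment, while 3 were higher and 1 was lower in HIP at an unadjusted p under 0.05. Ratios were above 0 on both arrays for 42 (30.4%; all probes 26.9%) and below 0 on both for 38 (27.5%; all probes 22.9%). At least 2-fold higher on both arrays were 6 (4.35%; all probes 2.57%), at least 2-fold lower were 3 (2.17%; all probes 2.44%), and 10 went opposite ways by at least that much. The median of the mean log2 ratios was 0.08, against 0.02 over all probes.

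Among the other hydrolases, 28 probes were tested, with 7 above and 10 below 0 on both arrays. Manba, which encodes the lysosomal beta-mannosidase, had 1208 and 2535 in HIP, against 230 and 203.1 in wild type, with log2 ratios of 2.39 and 3.64. Galc, which encodes the galactosylceramidase lost in Krabbe disease, had 3386 and 276.2 in HIP, against 322.3 and 119.5 in wild type, with ratios of 3.39 and 1.21. Ids, which encodes the iduronate sulfatase lost in Hunter syndrome, had 76.32 and 77.51 in HIP, against 228.8 and 1286 in wild type, with ratios of -1.58 and -4.05. The HIP levels of Manba lay well above those of wild type, and those of Ids well below them, while the levels of Galc overlapped. The 10 other lysosomal protease probes had a median mean log2 ratio of -0.13, with 1 above and 2 below 0 on both arrays and none at least 2-fold the same way on both. The 4 probes of protease inhibitors had a median of 0.37, with none above and 1 below 0 on both arrays.

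The proton pump (V-ATPase), which acidifies the lysosome, had 20 tested probes with 7 above and 6 below 0 on both arrays and a median of 0.24. Atp6v0b, a subunit of its membrane sector, had 1602 and 2359 in HIP, against 573.5 and 356.6 in wild type, with log2 ratios of 1.48 and 2.73. Atp6ap2, an accessory protein of the pump also known as the prorenin receptor, had 775.6 and 504.5 in HIP, against 253.9 and 141.6 in wild type on the probe A_44_P504019, with ratios of 1.61 and 1.83. The HIP levels of both lay above those of wild type, but a further Atp6ap2 probe gave 2.60 and -0.01. Activators and membrane proteins had 18 probes with 9 above 0 (50%) and 1 below 0 on both arrays, a median of 0.25 and none at least 2-fold the same way. The 12 sorting probes had 3 above and 3 below 0 on both arrays and a median of 0.

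The autophagy core machinery had 29 probes with 11 above and 6 below 0 on both arrays and a median of 0.11. Atg101, a part of the ULK1 kinase complex that starts autophagosome formation, had 4571 and 3511 in HIP, against 694.5 and 1699 in wild type, with log2 ratios of 2.72 and 1.05. Wipi2, a phosphoinositide-binding protein of the growing membrane, had 3516 and 3308 in HIP, against 1619 and 918.7 in wild type on 1 probe, with ratios of 1.12 and 1.85, while its other probe gave 1.03 and -1. These HIP levels lay above those of wild type. Atg16l1, which places the LC3-conjugating complex on that membrane, had 167.9 and 311.5 in HIP, against 2105 and 1781 in wild type, with ratios of -3.65 and -2.52. Its other probes gave 0.01 and -3.69, and -0.85 and -0.17. Map1lc3a, an LC3 protein that is joined to the autophagosome membrane, had 530 and 424.5 in HIP, against 2089 and 903.1 in wild type, with ratios of -1.98 and -1.09. The limma adjusted p of these 9 hydrolase, pump and autophagy probes was 0.942 each.

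The 8 autophagy receptor probes had 3 above and 3 below 0 on both arrays and a median of 0.21. The control genes tested were Tfeb, its relative Tfe3, Rptor of the mTOR complex that restrains them, and Rraga, Rragc, Lamtor1, Lamtor2 and Flcn. Of their 9 tested probes, 1 lay above and 6 below 0 on both arrays (66.7%, against 22.9% of all probes). Their median was -0.24, and none was at least 2-fold the same way on both. The probes below 0 included both Tfeb probes and Rragc. The Rragc probe was dim, at 1.89 and 1.56 times background in HIP, against 1.93 and 1.48 times in wild type. With centring on the array median, Rptor was at 0.42 and Lamtor2 at -0.04 relative to all probes. The Tfeb probes were then at -0.30 and -0.95, Tfe3 at -0.85 and Rragc at -0.61.

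**Figure D5:**
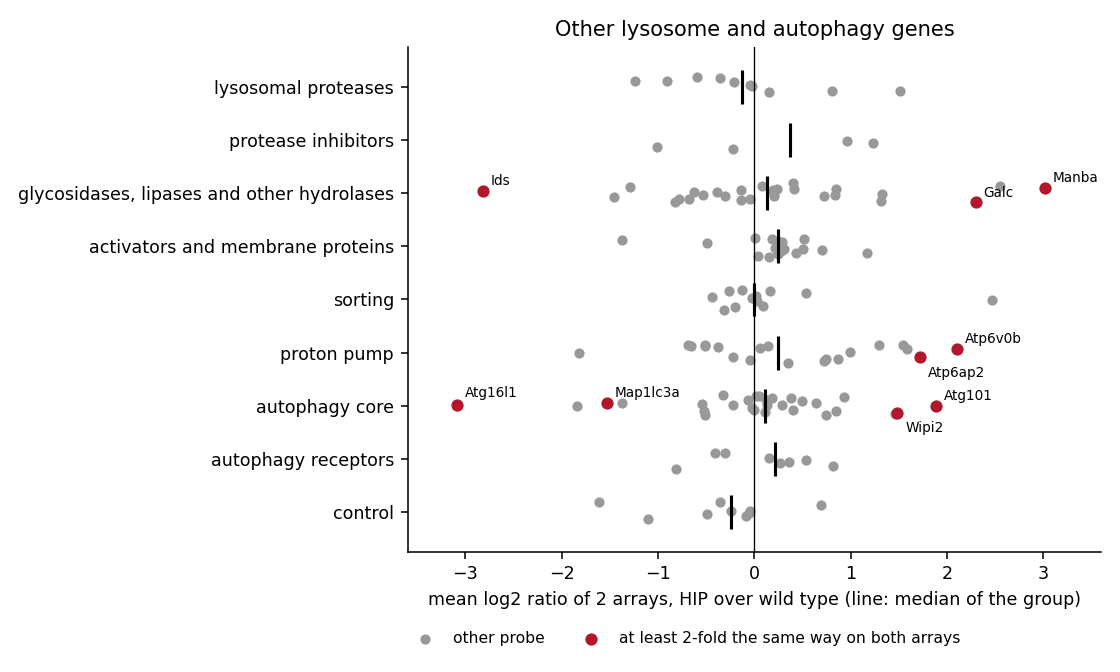
Mean log2 ratio of HIP over wild type over both arrays for each of the 138 tested probes of other lysosome and autophagy genes, by group (rows), with a line at the group's median. Red points mark the 9 probes at least 2-fold apart the same way on both arrays, 6 to the right of 0 and 3 to the left, and the medians of all groups lie between -0.24 and 0.37.

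The promoter sequences were set beside the ratios. The 3 members with CACGTG were Ctsd, Lamp1 and Cd63, whose log2 ratios on array 1 and array 2 were 2.58 and 2.63, 2.58 and -1.54, and 0.37 and 3.59. Among members and other lysosome and autophagy genes, the 17 tested probes of genes with the motif had median log2 ratios of 0.22 on array 1 and 0.07 on array 2, and 11.76% were at least 2-fold higher on both arrays. The 102 probes of genes without it had medians of 0.07 and 0.00, and 4.9% were at least 2-fold higher on both. Over all genes with a promoter sequence, the 1011 probes with the motif had medians of 0.03 and -0.02, and 2.27% were at least 2-fold higher and 2.87% at least 2-fold lower on both arrays. The 12946 probes without it had medians of 0.04 and 0.01, with 2.47% higher and 2.26% lower. The higher share with the motif among lysosome and autophagy genes rests on 2 of 17 probes, with Ctsd itself among them. It was not present over all genes.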

How the data were processed

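Gene expression was measured in 2 HIP and 2 wild-type extracts on 2 two-colour Agilent rat arrays (design 014879), with mRNA isolated on magnetic beads and its cDNA amplified by PCR, per the labels' protocols. Spots were read by the authors with the scanner software Feature Extraction 9.5.1.1 (Agilent), as the file headers state. For each spot the deposited scanner files hold the mean spot intensity and the median background intensity of each dye. They also hold a log10 ratio of the processed Cy5 over Cy3 signal and marks for outlier, saturated and well-above-background spots, per the file headers. Both arrays were on 1 slide and in 1 scan, per the file headers, so no batch could be tested. The authors' deposited ratio table, with 36824 entries, was matched to 36499 probes, of which 32760 (89.8%) equalled the scanner's ratio within 2e-04 on the log2 scale, so it holds log10 ratios of Cy5 over Cy3.

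With limma 3.58.1 (R 4.3.3), normexp (offset 50) corrected the background and ratios were normalized by loess with control spots at weight 0. Outlier spots (248 and 202 gene spots on array 1 and array 2) were left out, and spots of 1 probe were averaged. The filter kept probes for which on each array 1 dye or both were well above background. The log2 ratios, made from the deposited intensities, were tested two-sided against 0 by lmFit and eBayes. The fit had 1 residual and 1.7 prior degrees of freedom and a prior SD of 0.68, and p-values were adjusted by Benjamini-Hochberg over all 33651 probes, with a threshold of 0.05. The calls were tested on simulated data. Levels per extract come from ratios and average intensities after quantile normalization of the averages (Aquantile), and they compare extracts for 1 probe, not probes with each other. Only 2 arrays limit the precision.

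Probes were named by the array design, updated through RefSeq genes of GRCr8, used for names and promoter sequences. Every member probe is named. Of the other lysosome and autophagy genes, up to 2 genes per direction in each group are named, those with the largest mean ratio among probes at least 2-fold apart the same way on both arrays. The members and the lists were chosen with earlier results of these data known. Alternatives covered normalization, background correction, the filter, 1 probe per gene, the prior of the spread, a fit of 4 separate channels, the scanner's ratio, the deposited table and leaving out each array.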

Additional observations from a re-analysis of the deposited data

How the results depend on the processing

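limma called 0 probes under all 12 settings that allowed a test. The smallest adjusted p was 0.2903, without normalization, where 5458 probes were higher and 130 lower at an unadjusted p under 0.05. With a trended prior 0 probes were at that unadjusted p. The count of probes at least 2-fold higher on both arrays was 864, against 820 at least 2-fold lower. Relative to the median of all probes, it was 1720, against 638 lower, with ratios centred on the array median or not normalized. With the scanner's log ratio, read against 0, it was 1927, against 1576 lower. Over single arrays, which allow no test, it was 4654 to 5088 higher and 4332 to 5597 lower. For the other lysosome and autophagy genes the counts were 6 higher and 3 lower, 11 higher with centred and with unnormalized ratios, 6 lower with the scanner's ratio, and 21 to 25 higher and 14 to 20 lower over single arrays. The median ratios of all probes were 0.17 and 0.27 after centring over all spots and 0.78 and 1.19 without normalization.

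The mean log2 ratio of Ctsd lay between 2.60 and 3.05 over its 12 settings, and that of Cd63 between 1.98 and 2.62. That of the M6pr probe A_44_P260487 lay between -6.12 and -4.84 when the authors' deposited table was left out. The deposited entry under this probe's name, at 0.56 and -1.77, had a mean of -0.61. The scanner's own ratios of the probe were -5.98 and -6.27. The deposited entry therefore does not show how this probe depends on the processing. The sign turned for Lamp2 (-0.45, from centred and from unnormalized ratios) and for the Sqstm1 probes A_44_P367550 (0.52) and A_44_P367556 (0.27) under the same settings. It also turned for A_44_P107199 (-0.02) in the scanner's ratio and in the authors' deposited table. The cause was not tested. Wild type 2 had the weakest signal over background, at 2.94 times, and limits what dim probes such as Lamp2 can show.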

Other observations

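The following genes were chosen after their values were seen. Cst3 encodes cystatin C, a secreted inhibitor of cathepsins. Its probe A_44_P110109 had 1090 and 111 in HIP, against 172.9 and 183.5 in wild type, with log2 ratios of 2.66 and -0.73. Its other probe, A_44_P110110, had 1195 and 84.14 in HIP, against 149.8 and 121.5 in wild type, with ratios of 3.00 and -0.53. On both probes HIP 1 was the highest and HIP 2 the lowest of the 4 extracts, the order also seen for Lamp1.

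Lamp3, a LAMP family member, had 124.1 and 6084 in HIP, against 2258 and 260.5 in wild type on the probe A_44_P145300. Its log2 ratios of -4.19 and 4.55 cancelled to a mean of 0.18 ± 6.17 (SD, n = 2). Its other probe, A_42_P771337, gave 0.95 and -0.08.

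Tfeb, the transcription factor for lysosomal genes, had 105.6 and 158.6 in HIP, against 135.5 and 172.6 in wild type on the probe A_44_P157179, with log2 ratios of -0.36 and -0.12. Its probe A_44_P975634 had 2355 and 13780 in HIP, against 21340 and 14160 in wild type, with ratios of -3.18 and -0.04. Its relative Tfe3 had 177.8 and 190.1 in HIP, against 230.5 and 687.2 in wild type, with ratios of -0.37 and -1.85. None passed the limma test (adjusted p between 0.942 and 1 for these 7 probes).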
